A study of Danio rerio with 70 samples.

Results

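CD4 and CD8 are the coreceptors of the T-cell receptor: they bind the MHC molecule that presents the antigen and carry the kinase Lck to the receptor. Early thymocytes make neither coreceptor, thymocytes that rearrange the alpha chain of the receptor make both, and mature T cells keep CD4, which binds MHC class II, or CD8, which binds MHC class I. CD4 and CD8 are therefore used to place a T-cell leukaemia on this path, and human leukaemias that express TLX1 typically carry both. Zebrafish have cd4-1, which encodes the fish counterpart of mammalian CD4, the related genes cd4-2.1 and cd4-2.2, and the genes cd8a and cd8b for both chains of CD8.

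The coreceptor genes described here were taken by their identifiers (cd4-1, ENSDARG00000070668; cd8a, ENSDARG00000044797) and otherwise by symbol, which gave cd4-2.2 (ENSDARG00000073950) and cd8b (ENSDARG00000058682). These are 4 of the 35117 genes in the count tables. The 5th name, cd4-2.1, matched no identifier in the name list and was not analysed here. In the RefSeq annotation of the assembly GRCz12tu, cd4-1, cd4-2.1 and cd4-2.2 follow each other along 1 chromosome and cd8b lies next to cd8a. How reads shared between such neighbouring relatives were counted is not given in the sources used here. A read of cd4-1, cd8a and cd8b was present in each of the 70 libraries, and a read of cd4-2.2 in 69.

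The 70 RNA-seq libraries came from a pair of laboratories. In the Speleman laboratory, thymi were dissected from healthy Tg(rag2:GFP) fish (6 libraries), and leukaemia of T-cell precursors (T-cell acute lymphoblastic leukaemia, T-ALL) was collected from Tg(rag2:hTLX1; rag2:GFP) fish (2), in which the rag2 promoter, active in lymphoid precursors, drives human TLX1, and from such fish that were also phf6+/- (4). Both kinds of TLX1 tumour were also passed into Rag2-/- hosts (6 transplant libraries of each genotype, from 4 tumours of origin). In the Frazer laboratory, cells were sorted from Tg(lck:GFP) fish that were otherwise healthy (5 libraries). GFP-positive thymocytes were sorted from preleukemic Tg(lck:GFP) fish with the mutations hulk (3), otg (4) or shrek (2) and of the Tg(rag2:hMYC) line (3). T-ALL cells were sorted from leukemic hulk (9), otg (10) and shrek (10) fish. The sample descriptions name GFP-positive sorting only for the preleukemic cells. Tumours were taken when 90% of the fish was overtaken by GFP-positive leukaemia. The labels give no ages and name no mutated gene for hulk, otg or shrek. The titles of the thymi name the strain AB, and 1 thymus library, numbered 2-3-5-6, may be a pool. A healthy or preleukemic thymus holds thymocytes of all stages, so its level is a mean over them. In these bulk libraries fewer cells that express a gene and less RNA per cell cannot be told apart.

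Reads counted to genes were 8676867 to 56471528 per library, and 0 to 831 of them fell to cd4-2.2. Levels are in CPM, the reads of a gene relative to all reads counted to genes, scaled by TMM factors, which even out differences in RNA composition. These factors were computed over all 70 libraries together. Fold changes came from fits with TMM factors of their own libraries and filtered genes, so they need not equal ratios of mean CPM. lck, the T-cell kinase that binds both coreceptors, was at 213 CPM or more in every library. In 3 libraries, hulk tumours 1 and 2 and sorted healthy sample 3, mitochondrial genes took over 20% of counts. The sorted healthy libraries were deposited in a count table apart from the other Frazer libraries, and laboratories are compared only by their own controls. The plot of levels by group shows all 4 genes.

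**Figure D1:**
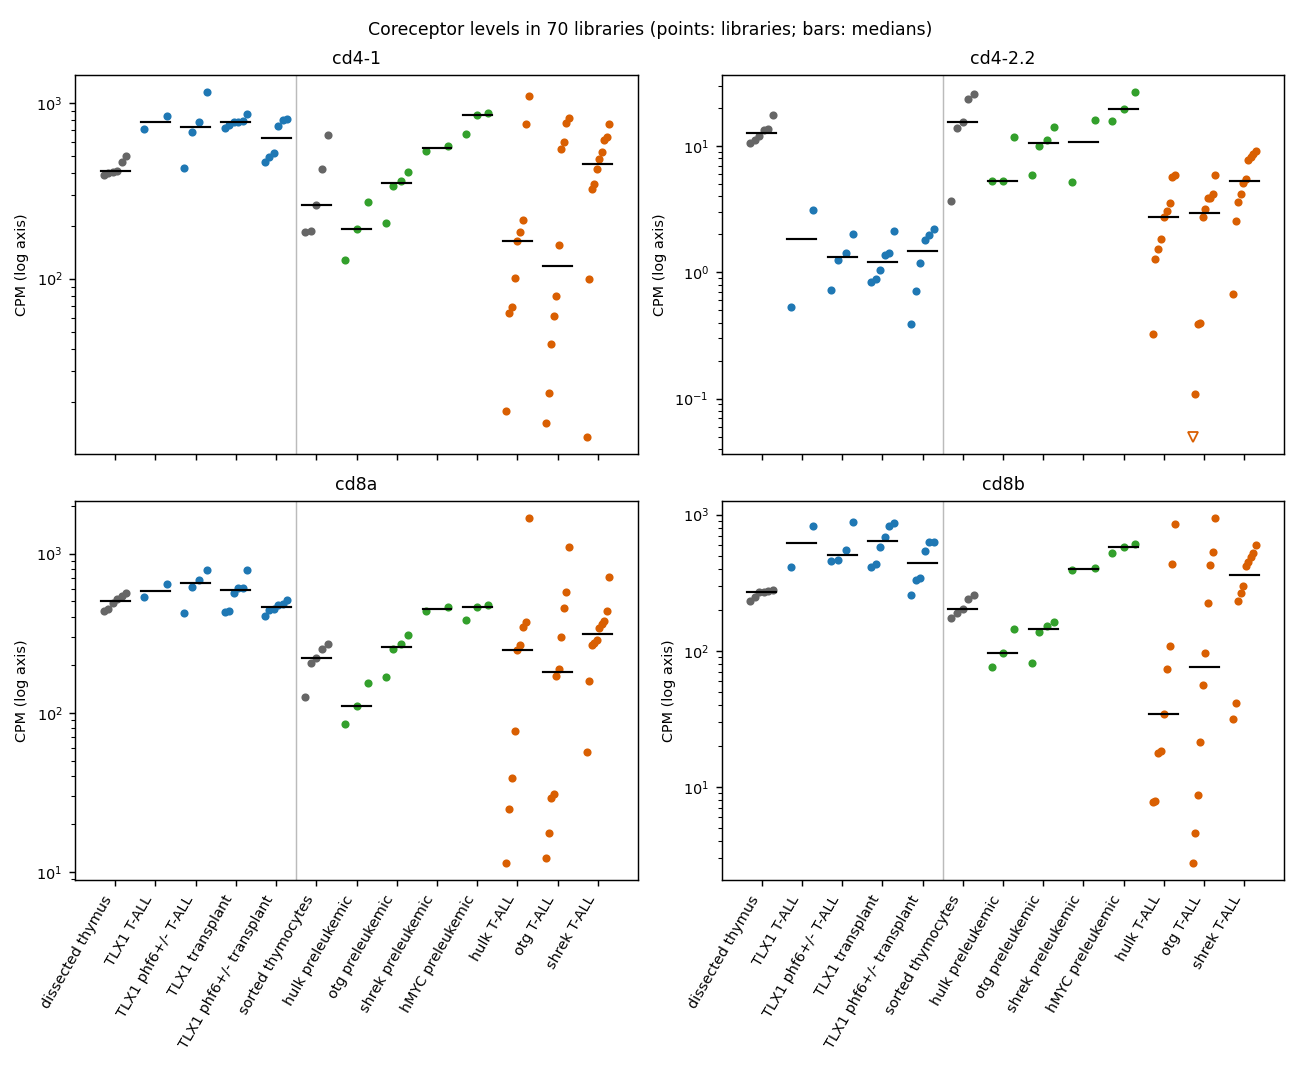
Level of each coreceptor gene (CPM, log axis) in 70 libraries by group; points are libraries, bars are group medians, the grey vertical line parts the laboratories, and the open triangle is an otg tumour with 0 reads of cd4-2.2, drawn at the bottom of the axis. The TLX1 tumours and transplants lie close together for cd4-1, cd8a and cd8b, whereas hulk, otg and shrek tumours are spread over more than an order of magnitude. cd4-2.2 is low in all tumour groups.

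With TMM scaling TLX1 leukaemias carried cd4-1, cd8a and cd8b at levels within or above those of dissected thymus, except for cd8a just below them in 1 tumour, and had little cd4-2.2. The cd4-1 level was 844 and 712 CPM in TLX1 tumours 1 and 2 and 781, 424, 683 and 1154 CPM in the phf6+/- tumours 1 to 4, against a lowest, median and highest of 388, 408 and 499 CPM in the thymi. The tumours were higher on average (766 ± 238, SD, n = 6, against 427 ± 43.7, n = 6), with 5 of 6 above every thymus and phf6+/- tumour 2 within their range. The log2 fold change was 0.95 ± 0.23 (SE; edgeR quasi-likelihood test, Benjamini-Hochberg adjusted p = 0.0034). In all fold changes against thymi the mean of TLX1 tumours and that of phf6+/- tumours weighed equally, although their numbers differ. cd8b, the beta chain of CD8, was at 823 and 415 CPM in TLX1 tumours and at 554, 461, 453 and 880 CPM in phf6+/- tumours, against 231, 271 and 278 CPM (lowest, median, highest) in thymi. All 6 tumours exceeded all thymi, and the log2 fold change was 1.299 ± 0.22 (adjusted p = 0.00033). cd8a, the alpha chain, was at 640 and 532 CPM in TLX1 tumours and at 421, 685, 615 and 789 CPM in phf6+/- tumours, against 437, 504 and 563 CPM in thymi. The groups overlapped for cd8a, with 4 of 6 tumours above and 1 below every thymus, and its log2 difference of 0.38 ± 0.16 did not pass (adjusted p = 0.0664). It passed when phf6+/- tumour 1 was left out (0.44, adjusted p = 0.0114).

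cd4-2.2 went the other way. It was at 3.14 and 0.535 CPM in TLX1 tumours and at 1.41, 0.722, 2.01 and 1.25 CPM in phf6+/- tumours, from 10 to 90 reads, against 10.6, 12.7 and 17.6 CPM (lowest, median, highest) in thymi. No tumour reached the lowest thymus, and the log2 fold change was -2.95 ± 0.40 (adjusted p = 6.4e-05), a 7.72-fold lower level. In this comparison 56% of all tested genes passed, 20.2% higher and 35.8% lower, so 3 of 4 coreceptor genes passing is near the background.

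The size and sign of these differences depended on scaling. Scaled by library size alone, the median log2 change of all genes was -1.45 in place of -0.19, cd4-1 stood at -0.30 (adjusted p = 0.341), cd8a at -0.92 (adjusted p = 0.00036) and cd8b at 0.05 (adjusted p = 0.869). The tumours above every thymus were then 0 of 6 for cd4-1, 0 for cd8a and 3 for cd8b, with 3, 6 and 3 below. Relative to the median gene the differences were nearly the same in both scalings, with 1.15 and 1.16 for cd4-1, 0.57 and 0.53 for cd8a, 1.49 and 1.501 for cd8b and -2.75 and -2.69 for cd4-2.2. The dissected thymi also held other cells. The summed level of 9 thymic epithelial markers was 376 to 539 CPM in thymi and 2.77 to 20.6 CPM in the 6 tumours, and foxn1, the epithelial master regulator, was at 10.7 to 14.5 CPM in thymi and at most 0.0690 CPM in tumours. Muscle markers (16 genes) summed to 1720 to 3084 CPM in thymi and 6.62 to 105 CPM in tumours, whereas neutrophil markers (9 genes) summed to 233 to 311 and 341 to 1724 CPM. Macrophage markers (17 genes) summed to 354 to 434 CPM in thymi, 326 to 475 CPM in TLX1 tumours and 167 to 1063 CPM in phf6+/- tumours. With TMM scaling lck itself rose by 0.72 ± 0.20 on the log2 scale (adjusted p = 0.0075). This rise, and the changes of other genes in TLX1 tumours given below, were not examined by library size alone. Their size, sign and calls may depend on scaling as well. The part of cell mixture in the coreceptor differences was not tested.

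With TMM scaling, genes that act with the coreceptors did not share one direction in TLX1 tumours. Of 14 genes of coreceptor and proximal receptor signalling, 2 passed higher and 8 lower (median log2 change -0.62, against -0.19 over all genes). Of all genes 20.2% passed higher and 35.8% lower, the background for this list and the next. cd247, the zeta chain of the receptor complex, rose by 1.09 ± 0.18, while the Tec-family kinase txk fell by 4.12 ± 0.52 and the costimulatory receptor cd28 fell by 2.60 ± 0.57 (adjusted p = 0.00022, 3.8e-05 and 0.0019). cd247l, by its symbol a gene like cd247, went the other way from cd247 (-2.56 ± 0.27, adjusted p = 1.2e-05). Its mean was 0.474 CPM in tumours and 2.80 CPM in thymi, against 292 and 145 CPM for cd247. Of 26 transcription factor genes of the CD4 and CD8 lineages, 3 passed higher and 16 lower (median -1.11). The lower ones included foxp3a (-3.21 ± 0.31), the zebrafish relative of the regulatory T-cell factor, and ID3 (-3.56 ± 0.49), an inhibitor of E proteins. ZBTB7B, which in mammals directs the CD4 lineage, was at 0.699 to 3.83 CPM in the 6 tumours against 10.7 to 16.2 CPM in thymi (-2.65 ± 0.36, adjusted p = 6.9e-05). RUNX3, which in mammals directs the CD8 lineage and silences CD4, was at 286 to 837 CPM against 275 to 457 CPM (0.84 ± 0.26, adjusted p = 0.0141). ZBTB7B and RUNX3, and RAG1, lck, foxn1, PAX5, phf6 and dntt wherever they are named, were chosen after their values were seen.

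Of 15 mature T-cell genes in the TLX1 tumours, 2 passed higher and 12 lower (median -2.11), where 20.2% and 35.8% of all genes did. CCR7, the receptor for exit from the cortex and homing to lymph nodes, had a mean of 4.48 CPM in tumours and 40.3 CPM in thymi (-3.04 ± 0.39, adjusted p = 3.9e-05). Of 11 immature thymocyte genes 1 passed higher and 4 lower (median 0.18), the share passing lower being near that of all genes. The 1 higher was RAG1, the recombinase subunit, at 3989 to 18560 CPM in tumours and 2952 to 3868 CPM in thymi (1.94 ± 0.37, adjusted p = 0.00069). The 4 lower included the Notch receptor genes NOTCH1 (ENSDARG00000052094), by 3.90 ± 0.43, and NOTCH3, by 4.46 ± 0.52 (adjusted p = 1.5e-05 and 2.3e-05). The others were KIT, by 3.52 ± 0.41, and dntt, by 7.73 ± 0.80 (adjusted p = 2.2e-05 and 1.5e-05). The mean of dntt was 0.012 CPM in tumours and 1.73 CPM in thymi. The list also holds another gene with the symbol NOTCH1 (ENSDARG00000103554), which did not pass here. Of 12 genes of the coreceptors' ligands, MHC class I and II and their partners, 3 passed higher and 4 lower (median 0.35), both shares near those of all genes. The class I light chain b2m rose by 1.13 ± 0.20, whereas the class II gene mhc2dab fell by 4.79 ± 0.73 and its invariant chain cd74a by 3.08 ± 0.61 (adjusted p = 0.00047, 0.00015 and 0.00086).

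The phf6 gene itself, which is mutated in part of human T-ALL, was at 20.2 and 6.46 CPM in TLX1 tumours 1 and 2 and at 13.4, 9.67, 11.2 and 10.6 CPM in the phf6+/- tumours, so its level did not part the genotypes, and transcript level need not show a heterozygous allele. No coreceptor gene passed between the genotypes. Between the 4 phf6+/- tumours and the 2 others 0.0405% of all genes passed. Log2 differences were -0.11 ± 0.33 for cd4-1, -0.00 ± 0.24 for cd8a, -0.15 ± 0.32 for cd8b and -0.52 ± 0.53 for cd4-2.2, with adjusted p of 0.699 to 1, and the sign of each depended on single tumours. A p that misses the threshold here does not show equal levels.

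With TMM scaling the coreceptor levels of transplants were near those of the tumour of origin, as the plot of transplants shows. None of the 4 genes passed in the paired comparison of summed transplants with their 4 tumours, where 0.13% of genes passed. The log2 differences were 0.06 ± 0.22 for cd4-1, -0.11 ± 0.23 for cd8a, -0.02 ± 0.24 for cd8b and 0.20 ± 0.48 for cd4-2.2 (adjusted p = 0.915 to 0.986). With these SEs, a p that misses the threshold does not show equal levels. The cd4-1 level of phf6+/- tumour 2, the lowest of the TLX1 tumours at 424 CPM, was 488, 463 and 518 CPM in its 3 transplants. Transplants of phf6+/- tumour 1 (781 CPM) had 739, 794 and 805 CPM, those of TLX1 tumour 1 (844 CPM) had 863 and 774 CPM, and those of TLX1 tumour 2 (712 CPM) had 774, 786, 744 and 714 CPM. With TMM scaling, then, no transplant of phf6+/- tumour 2 overlapped a transplant of another tumour in cd4-1. By library size alone its 3 transplants had 278, 310 and 353 CPM, overlapping TLX1 transplant 1-1 at 329 CPM, and the tumour itself 170 CPM. cd8a and cd8b differed between that tumour and its transplants: cd8a was 685 CPM in the primary and 514, 451 and 403 CPM in transplants, and cd8b was 461 CPM and then 331, 256 and 344 CPM. All 3 of its transplants lay below it for both CD8 chains with TMM scaling, but not by library size alone, where cd8a was 274.5 CPM in the primary and 292, 302 and 274.4 CPM in transplants, and cd8b 185 CPM and 188, 171 and 234 CPM. The 2 libraries named as passed on from transplant 2-2 of TLX1 tumour 2 had 432 and 437 CPM of cd8a and 413 and 432 CPM of cd8b, below the 608 and 689 CPM of transplant 2-2 itself.

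**Figure D2:**
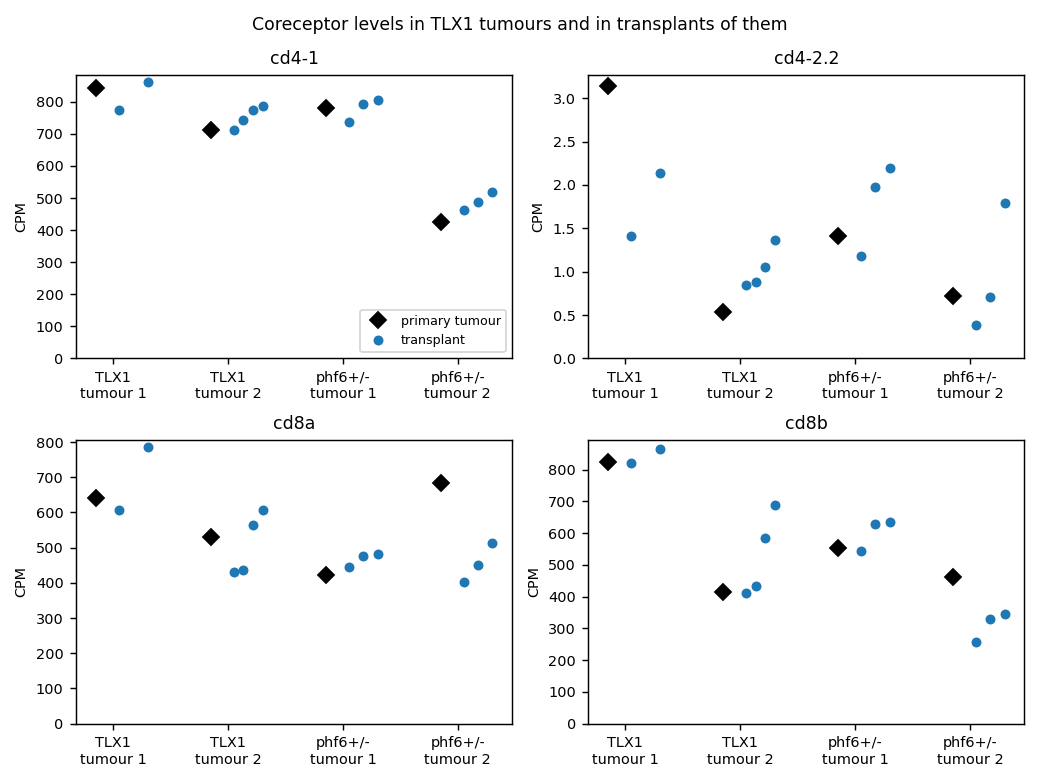
Level of each coreceptor gene (CPM) in 4 primary TLX1 tumours (diamonds) and in the transplants of each (circles), by tumour of origin. With TMM scaling, the 3 transplants of phf6+/- tumour 2 have cd4-1 at 463 to 518 CPM, below all transplants of the other tumours, and for cd8a and cd8b they lie below their primary.

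In the hulk, otg and shrek leukaemias cd4-1, cd8a and cd8b were spread widely between tumours of a line, with TMM scaling on both sides of the healthy range. Sorted healthy thymocytes held cd4-1 at 187, 261, 185, 420 and 651 CPM (samples 1 to 5). The lowest, median and highest tumour had 17.7, 164 and 1090 CPM in hulk, 15.1, 117 and 817 CPM in otg, and 12.6, 449 and 759 CPM in shrek. The highest tumour thus exceeded the lowest 61.6-fold, 54.1-fold and 60.1-fold, against 3.53-fold among the healthy samples. Tumours lay on both sides of the healthy range: 5, 6 and 2 were below every healthy sample in hulk, otg and shrek, and 2, 2 and 1 above. The numbers below were the same by library size alone, but the numbers above were then 0, 0 and 0.

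cd8a was at 222, 205, 126, 251 and 271 CPM in the healthy samples. It spanned 11.4 to 1667 CPM in hulk (median 248), 12.3 to 1096 CPM in otg (median 180) and 56.5 to 713 CPM in shrek (median 314). Below every healthy sample were 4 hulk, 4 otg and 1 shrek tumours, and above were 3, 4 and 7, or 2, 1 and 2 by library size alone. cd8b was at 255, 203, 188, 175 and 242 CPM in the healthy samples, and at 7.73 to 848 CPM in hulk (median 34.2), 2.75 to 941 CPM in otg (median 76.2) and 31.5 to 594 CPM in shrek (median 361). No hulk tumour lay within the healthy range of cd8b, with 7 below and 2 above.

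The tumours low in one coreceptor were largely those low in the others. In 9 of 29 tumours cd4-1, cd8a and cd8b were all below every healthy sample: hulk 1, 2, 5 and 8, otg 2, 6, 7 and 10, and shrek 7. In 5 tumours, hulk 7 and 9, otg 3 and 8, and shrek 8, all 3 genes were above every healthy sample. By library size alone the same 9 tumours were below in all 3 genes, but 0 of 29 were above, with the highest healthy cd4-1 then at 1026 CPM. shrek tumour 7 had 12.6 CPM of cd4-1, 56.5 of cd8a and 31.5 of cd8b, and otg tumour 7 had 42.5, 12.3 and 2.75 CPM. At the other end hulk tumour 7 had 1090, 1667 and 848 CPM and otg tumour 8 had 817, 1096 and 941 CPM.

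Libraries low in coreceptors still held lck transcripts. The healthy and preleukemic cells were sorted from Tg(lck:GFP) fish, and tumour cells were sorted too. The level of lck alone therefore does not show T-cell identity. lck was at 254 and 280 CPM in hulk tumours 1 and 2, at 806 and 571 CPM in hulk 5 and 8, at 627, 888, 412 and 698 CPM in otg 2, 6, 7 and 10, and at 818 CPM in shrek 7, against 390 to 1070 CPM in healthy samples. Only hulk 1 and 2, the libraries with 24.98% and 61.4% mitochondrial counts, fell below the healthy range of lck among these 9. Markers of other cell types were also present, and which cells made these transcripts was not tested. Summed neutrophil markers spanned 83.7 to 1421 CPM in hulk, 8.93 to 1727 CPM in otg and 21.5 to 128 CPM in shrek. In healthy samples they spanned 131 to 1275 CPM. Cytotoxic and NK-like markers (17 genes) summed to 1266, 722, 383 and 204 CPM in otg 2, 6, 7 and 10, the otg tumours low in all 3 genes, and to 964 CPM in otg 5, against 3.54 to 75.6 CPM in the other 5 otg tumours and 75.3 to 375 CPM in healthy samples. In hulk they were at 113, 265, 188 and 302 CPM in tumours 1, 2, 5 and 8 and at 13.2 to 977 CPM in the other 5, and in shrek at 36.9 CPM in tumour 7 and 1.48 to 82.7 CPM in the others. In hulk, otg, shrek and healthy samples B-cell markers (11 genes) summed to 23.7 to 315, 3.88 to 200, 4.64 to 78.9 and 33.8 to 492.7 CPM. Macrophage markers (17 genes) summed there to 141 to 344, 101 to 379, 93.1 to 204 and 168 to 239 CPM. The B-cell regulator PAX5 was at 0 in the median otg and shrek tumour. The part of other cells and of mitochondrial reads in the coreceptor levels was not tested.

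**Figure D3:**
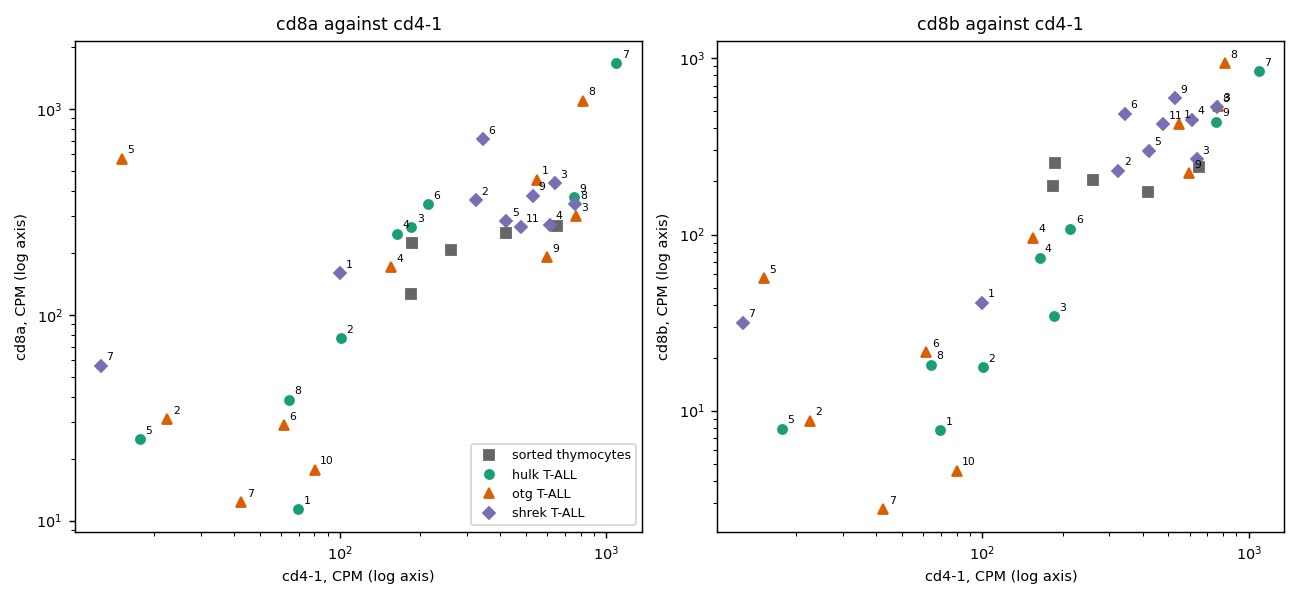
cd8a (left) and cd8b (right) against cd4-1 (CPM, log axes) in 5 sorted healthy thymocyte samples (grey squares) and 29 tumours (9 hulk, 10 otg, 10 shrek), numbered within each line. Tumours low in cd4-1 are largely low in cd8a and cd8b, with scatter around this trend. On the left otg tumour 5, at 15.1 CPM of cd4-1 and 572 CPM of cd8a, lies farthest from it.

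With this spread no difference of cd4-1, cd8a or cd8b from healthy thymocytes passed in any of these lines. Log2 fold changes of cd4-1 were -0.08 ± 0.77 in hulk, -0.00 ± 0.76 in otg and 0.36 ± 0.77 in shrek (adjusted p = 0.96, 1 and 0.755). For cd8a they were 0.82 ± 0.82, 0.63 ± 0.80 and 0.68 ± 0.80, and for cd8b -0.14 ± 0.95, 0.32 ± 0.95 and 0.74 ± 0.96 (adjusted p = 0.537 to 0.943). With SEs of 0.76 to 0.96 log2 units a doubling or halving of the mean was unlikely to be detected. The sign of these differences also depended on the method: limma voom with sample weights, which compares means of log levels and weighs down libraries that stand apart, put cd8a at -0.65 in hulk and -0.78 in otg and cd8b at -1.51 in otg, and cd8b passed lower in hulk (-2.18, adjusted p = 0.0302). Scaling by library size alone moved the median of all genes in otg from -0.04 to -0.58 and put cd8a at -0.50 and cd8b at -0.66 there.

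cd4-2.2 was the coreceptor gene that passed in hulk and otg. It was at 15.4, 13.9, 3.66, 23.6 and 25.7 CPM in the healthy samples, the 3.66 CPM being sample 3 with its 22.0% mitochondrial counts. The lowest, median and highest tumours had 0.322, 2.76 and 5.90 CPM in hulk, 0, 2.96 and 5.85 CPM in otg, and 0.671, 5.26 and 9.20 CPM in shrek. Every tumour lay below the 4 other healthy samples, and 7 of 9 hulk, 6 of 10 otg and 3 of 10 shrek tumours also below sample 3. The log2 fold change was -2.40 ± 0.63 in hulk (adjusted p = 0.0117) and -2.63 ± 0.61 in otg (adjusted p = 0.0017), 5.29-fold and 6.20-fold lower. In shrek it was -1.50 ± 0.61 and did not pass (adjusted p = 0.0559), but it did without healthy sample 3 (-1.76, adjusted p = 0.0386). Of all genes 13.7% passed in hulk (8.47% higher, 5.19% lower), 28% in otg (12.8% and 15.1%) and 30.2% in shrek (8.53% and 21.7%), so 1 of 4, 1 of 4 and 0 of 4 coreceptor genes stand beside those shares. All these comparisons use the same 5 healthy samples. otg tumour 2, with 0 reads of cd4-2.2, could hold up to the level of 3 reads, and otg tumour 5 had 1 read, limits that cover counting error only.

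Between the lines no coreceptor gene passed, where 28.4% of genes did between otg and hulk, 46.7% between shrek and hulk and 18% between shrek and otg. The difference nearest to passing was cd4-2.2, higher in shrek than in otg by 1.13 ± 0.53 (adjusted p = 0.131), with 4 of 10 shrek tumours above every otg tumour. For cd8b, shrek less hulk was 0.88 ± 0.79 (adjusted p = 0.372), and it passed with limma voom and sample weights (2.55, adjusted p = 0.0041). The remaining differences lay between -0.23 and 0.90 on the log2 scale, with adjusted p of 0.169 to 0.967.

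Among lineage and maturation genes many passed lower in these tumours. ZBTB7B was at 28.3 to 48.0 CPM in healthy thymocytes, 0.877 to 23.9 CPM in hulk, 0.109 to 12.4 CPM in otg and 0 to 1.22 CPM in shrek tumours. No tumour reached the lowest healthy sample, and the log2 fold change was -1.83 ± 0.68 in hulk (adjusted p = 0.0635), -4.39 ± 0.70 in otg (adjusted p = 3.6e-05) and -6.25 ± 0.75 in shrek (adjusted p = 1.7e-07). It also differed between lines, by -2.55 ± 0.62 from hulk to otg and -1.86 ± 0.62 from otg to shrek (adjusted p = 0.0029 and 0.0319). RUNX3 did not pass in any line (-0.23 ± 0.38, -0.22 ± 0.37 and 0.46 ± 0.38). Over the 26 lineage transcription factor genes, 6, 8 and 9 passed lower in hulk, otg and shrek and 0 passed higher, with medians of -1.04, -0.70 and -0.94 against 0.09, -0.04 and -0.02 over all genes. Of all genes 5.19%, 15.1% and 21.7% passed lower, and 8.47%, 12.8% and 8.53% higher. TCF7, the T-cell factor that opens the programme in mammals, was among those in hulk (-1.99 ± 0.49, adjusted p = 0.0087), and ID3 in otg (-3.54 ± 0.71) and shrek (-5.55 ± 0.76; adjusted p = 0.00046 and 1.5e-06).

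Of 15 mature T-cell genes, 5, 8 and 11 passed lower in hulk, otg and shrek and 0 higher (medians -0.99, -1.61 and -3.97), where 5.19%, 15.1% and 21.7% of all genes passed lower. Those shares are the background for the counts of the next lists as well. FOXO1 (ENSDARG00000099555) had log2 fold changes of -1.96 ± 0.62, -3.04 ± 0.61 and -4.63 ± 0.64 (adjusted p = 0.0312, 0.00046 and 1.5e-06). The list also counts CXCR4 (ENSDARG00000057633), a chemokine receptor that is not particular to mature T cells. Its log2 fold changes were -2.97 ± 0.72, -3.40 ± 0.70 and -5.08 ± 0.73 (adjusted p = 0.0079, 0.00056 and 3.1e-06). Of 14 signalling partners, 0, 2 and 0 passed higher and 4, 6 and 8 lower (medians -0.26, -0.80 and -1.20). ptprc, the CD45 phosphatase that activates Lck, had means of 357 CPM in hulk and 282 CPM in otg against 1275 CPM in healthy cells (-1.71 ± 0.48 and -2.08 ± 0.47; adjusted p = 0.0165 and 0.0012), and in shrek cd28 fell by 5.99 ± 0.70 (adjusted p = 9.3e-08). cd247 rose in otg (1.54 ± 0.43, adjusted p = 0.0070). cd247l fell in otg (-3.27 ± 0.95, adjusted p = 0.0093) and in shrek (-6.53 ± 1.08, adjusted p = 1.8e-05), from a mean of 14.5 CPM in healthy cells.

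Of 11 immature thymocyte genes 0, 0 and 2 passed higher and 3, 2 and 2 lower (medians -0.23, 0.78 and 1.04), the lower counts in otg and shrek being near the shares of all genes. The 2 that rose in shrek were RAG1 (2.56 ± 0.87, adjusted p = 0.0232) and RAG2 (1.48 ± 0.50, adjusted p = 0.0223). DTX1, a Notch target, fell in all of them, by 2.64 ± 0.53 in hulk, 2.17 ± 0.51 in otg and 1.49 ± 0.51 in shrek (adjusted p = 0.0017, 0.0019 and 0.0232). CCR9 fell in all of them as well (-1.19 ± 0.37, -1.35 ± 0.36 and -2.02 ± 0.36; adjusted p = 0.0272, 0.0047 and 4.2e-05). NOTCH1 (ENSDARG00000103554) also passed lower in hulk (-3.02 ± 0.95, adjusted p = 0.0309). dntt, which adds bases at receptor gene joints, was at 69.6 CPM in shrek tumour 7, the tumour with the lowest cd4-1, and at most 17.5 CPM in the other 28 tumours. Of 12 ligand genes 0, 0 and 1 passed higher and 0, 1 and 3 lower (medians 0.21, 0.01 and -0.60), the last near the share of all genes, and the class I gene mhc1zba fell by 1.03 ± 0.25 in otg and 1.01 ± 0.25 in shrek (adjusted p = 0.0022 and 0.0017).

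Before leukaemia, coreceptor genes passed higher in hMYC and shrek thymocytes and lower in hulk thymocytes, each against the same 5 healthy samples, and differences between the preleukemic groups themselves were not tested. Preleukemic hMYC thymocytes had cd4-1 at 873, 857 and 662 CPM, cd8a at 475, 383 and 464 CPM and cd8b at 604, 522 and 581 CPM. All 3 samples exceeded all 5 healthy samples in each gene (by library size alone 2 of 3 in cd4-1), and all 3 genes passed higher: cd4-1 by 1.298 ± 0.38 (adjusted p = 0.0239), cd8a by 1.13 ± 0.27 (adjusted p = 0.0094) and cd8b by 1.52 ± 0.25 (adjusted p = 0.0011). Of all genes 19.9% passed, 8.61% higher. The cd4-1 call was lost without each of 5 single samples in turn (adjusted p up to 0.0778; healthy 1 and 2, hMYC 1, 2 and 3). By library size alone, where the median of all genes moved from -0.10 to -0.30, cd8b still passed but cd4-1 (1.03, adjusted p = 0.135) and cd8a (0.895, adjusted p = 0.0599) did not. RAG1 was at 4898 to 11210 CPM in these samples and 283 to 2711 CPM in healthy ones (2.97 ± 0.72, adjusted p = 0.0106).

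Preleukemic shrek thymocytes had 438 and 461 CPM of cd8a and 391 and 408 CPM of cd8b, above all healthy samples (by library size alone 1 of 2 in each), and 532 and 567.8 CPM of cd4-1, within their range. cd8a was higher by 1.21 ± 0.30 (adjusted p = 0.0052) and cd8b by 1.06 ± 0.28 (adjusted p = 0.0076), where 38% of genes passed, 17.3% higher, and cd4-1 did not pass (0.82 ± 0.42, adjusted p = 0.131). These rest on 2 samples: without sample 1 neither CD8 chain passed (adjusted p = 0.0536 and 0.0681), and without sample 2 cd8b did not (0.0555). Without healthy sample 5, cd4-1 passed too (1.23, adjusted p = 0.0126). By library size alone, where the median of all genes moved from -0.27 to -0.82, neither CD8 chain passed (0.64 and 0.51, adjusted p = 0.17 and 0.213), and relative to that median they stood at 1.46 and 1.33. The preleukemic shrek libraries were the deepest, at 47598816 and 56471528 reads.

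In preleukemic hulk thymocytes cd8b was the coreceptor gene that passed lower. They had 96.3, 146 and 75.6 CPM of cd8b, all below the healthy samples (-1.003 ± 0.27, adjusted p = 0.0425), and 110, 153 and 85.1 CPM of cd8a (-0.89 ± 0.28, adjusted p = 0.0861). cd4-1 was at 272, 191 and 127 CPM (-0.84 ± 0.40, adjusted p = 0.224). Of all genes 3.77% passed, 1.54% lower. lck fell with them, to 562, 284 and 213 CPM (-1.22 ± 0.32, adjusted p = 0.0417), and sample 3 had 15.7% mitochondrial counts and the fewest reads of all libraries (8676867). B-cell markers summed to 304 to 411 CPM there and to 33.8 to 492.7 CPM in healthy samples, and neutrophil markers to 319 to 1575 and 131 to 1275 CPM. Their part in the lower coreceptors was not tested. The cd8b call was lost without each of healthy 1, 2, 4 and 5 and hulk 3 (adjusted p up to 0.248), as well as by library size alone (-1.07, adjusted p = 0.0696), with limma voom (-0.98, adjusted p = 0.0581) and with only the compared groups fitted (-0.97, adjusted p = 0.228), and without healthy sample 3 both cd8a (-1.04, adjusted p = 0.02) and cd4-2.2 (-1.45, adjusted p = 0.0392) passed as well.

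Preleukemic otg thymocytes had cd4-1 at 405, 358, 206 and 338 CPM and cd8a at 269, 310, 167 and 250 CPM, both largely within the healthy ranges (-0.09 ± 0.35 and 0.19 ± 0.25; adjusted p = 0.929 and 0.749). cd8b was at 163, 152, 81.7 and 136 CPM, below every healthy sample in all 4, yet its difference did not pass (-0.69 ± 0.24, adjusted p = 0.104), where 5.33% of genes did. It passed in the DESeq2 test (-0.67, adjusted p = 0.0416) and with limma voom (-0.66, adjusted p = 0.0171), and by library size alone 3 of the 4 samples lay below every healthy one.

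Of tumours set against preleukemic thymocytes of their own line, only otg had a coreceptor gene that passed, which was cd4-2.2. In otg all 10 tumours (0 to 5.85 CPM) lay below all 4 preleukemic samples (9.93, 14.2, 5.88 and 11.1 CPM), and the log2 fold change was -1.964 ± 0.65 (adjusted p = 0.0391), where 12.1% of genes passed, 5.52% lower. This call did not survive leaving out any 1 of the 4 preleukemic samples (adjusted p = 0.0535 to 0.11) or fitting the compared groups alone (-2.002, adjusted p = 0.219). In hulk, where 0.206% of genes passed, cd4-2.2 was at 11.7, 5.25 and 5.26 CPM before leukaemia (-1.19 ± 0.73, adjusted p = 0.427), and in shrek, where 15.4% passed, at 16.2 and 5.17 CPM (-1.04 ± 0.83, adjusted p = 0.394). cd4-1, cd8a and cd8b had log2 differences of -0.54 to 1.72 with SE of 0.82 to 1.29 (adjusted p = 0.426 to 0.98). The plot of fold changes sets all 16 comparisons side by side.

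**Figure D4:**
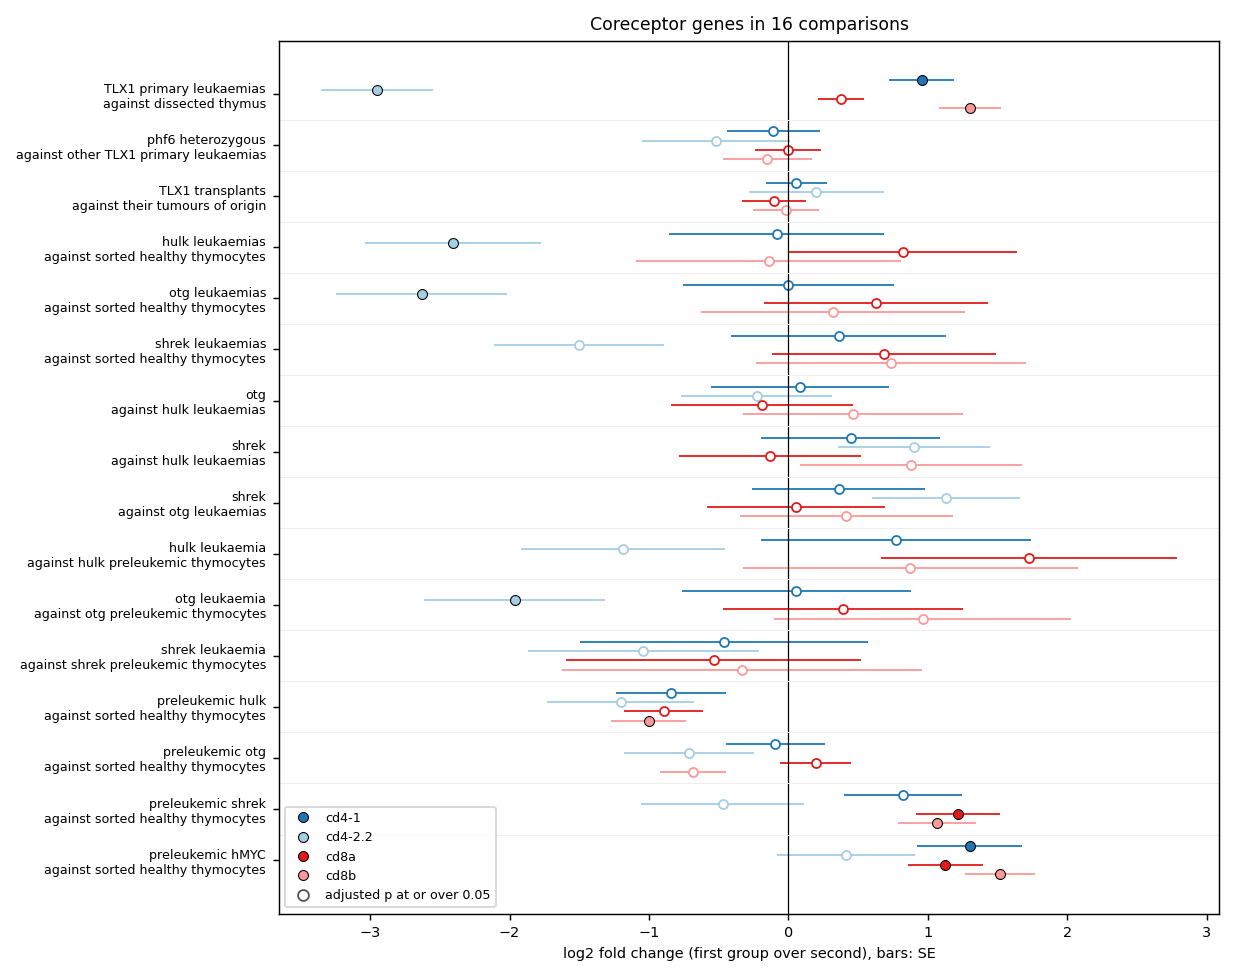
Log2 fold change of the 4 coreceptor genes in 16 comparisons; bars are SE, filled points have an adjusted p under 0.05 (edgeR) and open points do not. cd4-2.2 lies left of 0 in all comparisons of tumours with healthy or preleukemic cells, the SE of cd4-1, cd8a and cd8b is 0.62 to 1.29 in comparisons with hulk, otg and shrek tumours and 0.16 to 0.42 in the others, and hMYC and shrek preleukemic samples lie to the right in cd8a and cd8b.

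The balance of CD4 to CD8 transcripts was read from the ratio of cd4-1 to cd8a reads within a library, which no scaling between libraries can move. Gene lengths are not divided out, so the ratio compares libraries and not the genes. It was 0.841, 1.27, 1.47, 1.68 and 2.41 in the healthy sorted samples and 0.482 to 2.25 in 9 of the 10 shrek tumours, with 0.224 in shrek tumour 7. In hulk it was 6.11 in tumour 1, 2.03 in tumour 9, 1.66 in tumour 8 and 1.31 in tumour 2, and 0.624 to 0.711 in the other 5, below every healthy sample. In otg it ran from 0.745 to 4.54 in 8 tumours, with 0.724 in tumour 2 and 0.0264 in tumour 5. The latter held 139 cd4-1 reads and 5271 cd8a reads. With TMM scaling it was the only tumour of 29 with cd4-1 below and cd8a above every healthy sample, whereas by library size alone its cd8a, at 349.5 CPM, lay within the healthy range of 143 to 426 CPM. Its cd8b was at 56.4 CPM.

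In TLX1 tumours the ratio was 1.32 and 1.34, and 1.85, 0.619, 1.11 and 1.46 in phf6+/- tumours, against 0.689 to 1.12 in thymi. The mean log2 ratio was higher by 0.51 in tumours, with 4 of 6 above and 1 below every thymus, and the exact two-sided permutation test gave p = 0.0606 (n = 6 and 6; smallest possible 0.0022), adjusted to 0.424 over the 7 ratio tests. In the other 6 tests, of hulk, otg and shrek against healthy cells and against each other, the mean log2 ratio differed by -0.46 to -0.00 with permutation p of 0.416 to 0.984 and adjusted p of 0.984. None of the 7 passed. The SD of the log2 ratio was 2.14 in otg, 1.11 in hulk, 1.08 in shrek and 0.56 in healthy samples.

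**Figure D5:**
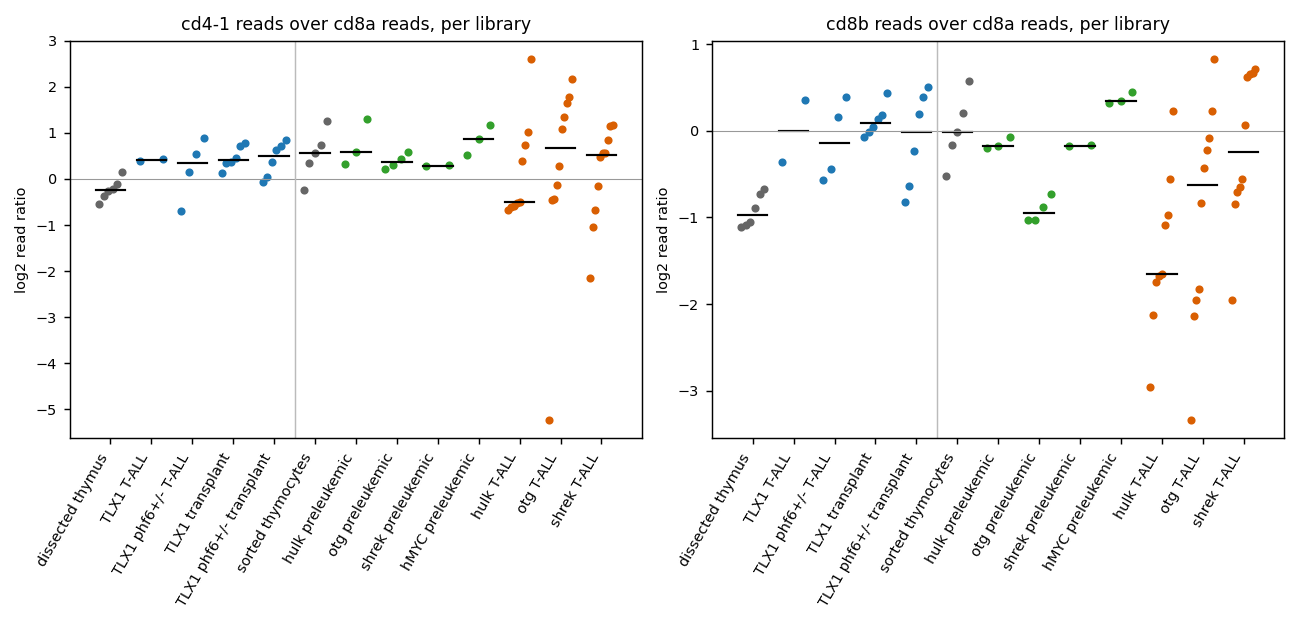
Log2 ratio of cd4-1 to cd8a reads (left) and of cd8b to cd8a reads (right) in each library by group; points are libraries, bars are medians, the grey vertical line parts the laboratories, and 0 means equal read numbers. otg tumour 5 stands at -5.24 on the left, and most hulk tumours lie below the healthy samples on the right.

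The chains of CD8 also parted company in some groups. The ratio of cd8b to cd8a reads was 0.698 to 1.49 in sorted healthy thymocytes, and 8 of 9 hulk, 5 of 10 otg and 5 of 10 shrek tumours lay below that range, with medians of 0.316, 0.653 and 0.863, while 4 shrek tumours and 1 otg tumour lay above it. All 4 preleukemic otg samples were below it too (0.490 to 0.605), the preleukemic shrek and hulk samples within it (0.875 to 0.952), and the hMYC samples at 1.25 to 1.36. In thymi the ratio was 0.464 to 0.628 and in TLX1 tumours 0.674 to 1.31, with all 6 above every thymus. These ratios were looked at after their values were seen and carry no test. The ratio of cd4-2.2 to cd4-1 reads was 0.0270 to 0.0353 in thymi and 0.00075 to 0.0037 in the 6 TLX1 tumours, so cd4-2.2 was also low relative to cd4-1 within each TLX1 tumour. In hulk, otg and shrek its medians were 0.0149, 0.0065 and 0.0145 against 0.0533 in healthy samples, with 5 of 9, 8 of 10 and 7 of 10 tumours below all of them.

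Whether tumours of a line that are high in cd4-1 are high in cd8a was tested on log2 CPM within each line. In hulk they were related (Pearson r = 0.876, exact permutation p = 0.0014, adjusted over 3 lines 0.0043; Spearman rho = 0.95, exact permutation p = 0.00035, adjusted 0.0011; n = 9), and r was 0.805 without the 2 tumours farthest from the median of cd4-1. In otg they were not shown to be (r = 0.547, permutation p = 0.102; rho = 0.442, permutation p = 0.205, adjusted 0.219; n = 10), and r was 0.881 without the 2 farthest tumours. These were otg tumours 5 and 8, and tumour 5 is the one with the log2 ratio of cd4-1 to cd8a reads of -5.24. In shrek r was 0.856 (permutation p = 0.0198, adjusted 0.0298) but rho was 0.43 (permutation p = 0.219), and without the 2 farthest tumours r was -0.34, so the relation rests on those tumours. Spearman rho of cd8a with cd8b was 0.967 in hulk, 0.855 in otg and 0.539 in shrek, and that of cd4-1 with cd8b was 0.9, 0.806 and 0.685. cd4-2.2 followed cd4-1 in otg (0.758) and hardly in hulk (0.05). The hulk values include tumours 1 and 2, with 24.98% and 61.4% mitochondrial counts, and were not computed without this pair.

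The genes whose levels ran most like cd4-1 over the 29 tumours, after the mean of each line was taken off, were BCL2L1, which encodes the survival factor Bcl-xL, with a Spearman rho of 0.934, DENND5B (0.927), DCAF10 (0.903), cd8b (0.9) and polm (0.896), a polymerase used in joining receptor gene ends, among 16084 genes with a symbol. Over the 17 healthy and preleukemic libraries of the Frazer laboratory their rho with cd4-1 was 0.0343, 0.603, 0.328, 0.27 and 0.451. Most like cd8a were NCK1 (0.85), an adaptor, rorc (0.836), the gene of a nuclear receptor that double-positive thymocytes of mammals need to survive, cd8b (0.831), ZNRF1 (0.829) and CPS1 (0.802), with 0.0564, 0.409, 0.777, 0.439 and 0.167 over the 17 libraries. cd8a itself came at place 112 for cd4-1 (0.667). RAG1 had 0.713 with cd4-1 and 0.309 with cd8a, and lck 0.567 and 0.536. These are descriptions over tumours that share line and laboratory, and the part of any differences in purity was not tested.

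Ordered by median, cd4-1 in the Frazer libraries ran from hMYC preleukemic (857 CPM) over shrek preleukemic (550), shrek tumours (449), otg preleukemic (348), healthy (261), hulk preleukemic (191) and hulk tumours (164) to otg tumours (117). Of these neighbours only the first pair did not overlap in range. For cd8a the order was hMYC preleukemic (464), shrek preleukemic (450), shrek tumours (314), otg preleukemic (260), hulk tumours (248), healthy (222), otg tumours (180) and hulk preleukemic (110), with every pair of neighbours overlapping. In cd8b hMYC preleukemic (581) stood above shrek preleukemic (399) and healthy samples (203) above otg preleukemic (144) without overlap, and the lowest medians were those of otg (76.2) and hulk tumours (34.2). In the Speleman libraries the only neighbours without overlap were the thymi and TLX1 tumours in cd4-2.2.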

How the data were processed

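Stranded polyadenylated RNA libraries of 70 zebrafish samples in 13 groups were analysed from raw read counts per Ensembl gene, which the authors deposited as counts. Per the submitters' processing notes the aligner was STAR and the genome build GRCz10. The annotation release and the strand setting of the counting are not given in the sources used here, so reads of overlapping antisense genes may not be told apart. Summary rows that name no gene (17.9% to 52.6% of counts in the Frazer tables) were left out, and 9 columns that match no labelled sample were not used. Symbols of 27000 genes came from a name list in which zebrafish genes can carry human symbols. Tests of counts were made with edgeR 4.0.16 under R 4.3.3, with limma 3.58.1 and DESeq2 1.42.0 as alternatives. Settings were TMM scaling, filterByExpr (minimum count 10, minimum total 15), robust quasi-likelihood F-tests, Benjamini-Hochberg adjustment over all genes and a threshold of 0.05. All 4 coreceptor genes passed the filter in each fit. Fits held the 12 TLX1 primary tumours and thymi, the 4 tumours with summed transplants paired by origin, the 46 Frazer libraries, or the 17 healthy and preleukemic ones. SEs are those the F-test implies. Ratio tests used SciPy 1.17.1 with 0.5 reads added to each count. The fits were tested on simulated data.

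Transplants share a tumour by their names, and primary and summed transplants deviated together (r = 0.432 to 0.606 over 4 pairs), so they were paired. Nothing else says that samples came from separate fish, so p-values measure the spread between these samples. All of 201 replicate pairs differed by more than counting error. Members, gene lists, comparisons and alternatives were chosen with earlier results of these data known. Besides the members, genes named are up to 4 of each list with the smallest adjusted p and an absolute log2 change of at least 1, the 5 most alike, and those said to be chosen later. The alternatives were other scalings, no filter, DESeq2, weighted limma voom, fits of the compared groups alone, a replicate block, no highly mitochondrial libraries, 3 reads added in ratios, and each replicate left out.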

Additional observations from a re-analysis of the deposited data

Results flagged for a closer look

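Within-group gaps were screened with Dixon's ratio in 45 sets of 4 to 10 libraries. For normally distributed values the screen flags about 1 set in 20 by chance, so some flags among 45 sets are to be expected. Levels were screened as CPM and not as logs. With cd8a spanning 147-fold in hulk and 89.1-fold in otg tumours, that rate need not hold, and a flag does not tell an outlier from a skewed spread. The cd8a level of hulk tumour 7, at 1667 CPM, stood apart from the 8 other hulk tumours, the next of which had 372 CPM, and it also did by library size alone (975.3 and 495 CPM). The cd8a level of otg tumour 8, at 1096 CPM, stood apart from the 9 other otg tumours, the next of which was otg tumour 5 with 572 CPM. By library size alone it did not, at 451 CPM with the next tumour at 377 CPM, and there shrek tumour 6 stood apart instead, at 1040 CPM with the next at 447 CPM. The log2 ratio of cd4-1 to cd8a reads in otg tumour 5, at -5.24, stood apart from the other otg tumours.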

How the results depend on the processing

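Of 168 alternative values of the 12 coreceptor differences that passed, 139 kept direction and call and 1 turned in sign, and of 620 alternative values of the 52 that did not pass, 66 turned in sign. Depth limits cd4-2.2, which rested on 0 to 201 reads in hulk, otg and shrek tumours, whereas the other genes had 28 reads or more in every library. Whatever turned or lost a call below, the cause was not tested, apart from fewer samples where samples were left out or groups dropped.

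The number of the 4 coreceptor genes that passed changed as follows. Scaling by library size alone gave 2 in place of 3 in TLX1 tumours (cd4-1 and cd8b lost, cd8a passing lower), 1 in place of 0 in shrek tumours, 0 in place of 1 in preleukemic hulk, 0 in place of 2 in preleukemic shrek and 1 in place of 3 in preleukemic hMYC. DESeq2 size factors gave 1 in shrek tumours, and the DESeq2 test 1 there, 2 in preleukemic hulk and 1 in place of 0 in preleukemic otg. limma voom with weights gave 4 in TLX1 tumours, 3 in preleukemic shrek, 2 in place of 1 in hulk tumours, 1 in shrek tumours, 1 in place of 0 for shrek against hulk, 0 in preleukemic hulk and 1 in preleukemic otg. Fits of only the groups compared gave 1 in shrek tumours, 0 in place of 1 for otg tumours against preleukemic otg, 0 in preleukemic hulk and 2 in preleukemic hMYC, where cd4-1 was lost. The replicate block gave 3 in preleukemic shrek. Without the highly mitochondrial libraries it was 1 in shrek tumours and 3 in preleukemic hulk. With 1 replicate left out it was 3 to 4 in TLX1 tumours, 2 to 3 in preleukemic hMYC, 0 to 1 in shrek tumours, 0 for otg against preleukemic otg, 0 to 3 in preleukemic hulk and 0 to 3 in preleukemic shrek.

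Log2 differences that turned in sign were as follows. By library size alone they became, against thymus, -0.30 for cd4-1 and -0.92 for cd8a, for transplants 0.063 for cd8a and 0.15 for cd8b, for otg against healthy -0.50 for cd8a and -0.66 for cd8b, for cd4-1 of shrek against healthy -0.031 and of otg against hulk -0.036, for cd8a of shrek against hulk 0.32, and for otg against preleukemic otg -0.76 for cd4-1, -0.80 for cd8a and -0.10 for cd8b. By limma voom they became -0.65 for cd8a in hulk, -0.78 for cd8a and -1.51 for cd8b in otg, 1.18 for cd8a of shrek against hulk, -0.28 for cd4-1 and -1.20 for cd8b of hulk against preleukemic hulk, -0.84, -1.04 and -0.90 for cd4-1, cd8a and cd8b of otg against preleukemic otg, 0.32 for cd4-1 of preleukemic otg, 0.052 for cd8a with phf6+/- and 0.047 for cd8b of transplants. With DESeq2 size factors and in the DESeq2 test alike they became 0.0055 and 0.0056 for cd4-1 and 0.142 and 0.141 for cd8a with phf6+/-, and -0.067 and -0.068 for cd8a of shrek against otg. Without a filter cd4-1 of otg against preleukemic otg was -0.019 and cd8b of transplants 0.037, and without the passed-on libraries the latter was 0.045. In a fit of only the groups compared, cd8a with phf6+/- was 0.095. Without highly mitochondrial libraries cd4-1 of otg against hulk was -0.23 and cd8b of hulk against healthy 0.071. The log2 read ratio of otg against hulk was 0.0011 with 3 reads added and 0.37 without highly mitochondrial libraries, and that of shrek against hulk 0.24 without them.

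Replicate numbers do not pair the Frazer samples (correlations of same-numbered deviations -0.334 to 0.375). With a replicate block the differences that turned were -0.086 for cd8a of hulk, -0.38 for cd8b of otg and -0.079 for cd4-1 of shrek against healthy, 0.40 and 0.50 for cd8a of otg and shrek against hulk, -0.10 for cd4-1 and -0.97 for cd8b of hulk and -0.47 for cd4-1 and -0.043 for cd8a of otg against their preleukemic samples, and 0.37 for cd4-1 of preleukemic otg. The block left 0 of 4 genes passing in preleukemic hulk and let cd4-1 pass in preleukemic shrek (1.26, adjusted p = 0.0082, edgeR). Without the replicate block cd4-2.2 in transplants was -0.11.

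With 1 replicate left out the signs turned within these ranges. With phf6+/- they were -0.41 to 0.11 for cd4-1, -0.16 to 0.31 for cd8a, -1.27 to 1.22 for cd4-2.2 and -0.55 to 0.39 for cd8b, and in transplants -0.20 to 0.069 for cd8a, -0.042 to 0.60 for cd4-2.2 and -0.14 to 0.18 for cd8b. For cd4-1 they were -0.25 to 0.33 in hulk and -0.17 to 0.41 in otg against healthy, -0.11 to 0.18 for otg against preleukemic otg and -0.26 to 0.31 for preleukemic otg. For cd4-2.2 they were -1.66 to 0.051 for shrek against preleukemic shrek, where 1 preleukemic sample remains, and -1.60 to 0.14 for preleukemic shrek. Where 1 sample remained it was assumed to vary like the other groups.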
